A study of Mus musculus with 120 samples.

Results

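The 31 genes described here encode proteins of the myelin sheath and of the oligodendrocyte lineage. They were found by symbol, all 31 among 49466 genes, in each of the 120 libraries. By role they comprise 11 myelin membrane proteins (Mbp, Mog, Mag, Mobp, Cnp, Cldn11, Opalin, Ermn, Mal, Hapln2 and Tspan2), 5 transcription factors (Myrf, Olig1, Olig2, Sox10 and Nkx6-2), 4 enzymes of myelin lipids and acetate supply (Ugt8a, Gal3st1, Fa2h and Aspa) and 2 gap junction proteins (Gjb1 and Gjc3). The remaining genes are 5 of precursors and newly formed oligodendrocytes (Pdgfra, Cspg4, Gpr17, Enpp6 and Bcas1) and 4 with roles in secreted signals, iron and metabolism (Enpp2, Trf, Sirt2 and Qdpr). All 31 passed the filter on low values in every comparison.

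Polyadenylated RNA of mouse brain was sequenced in 30 groups of 4 biological replicates. All mice were of the C57BL/6J strain, were given adeno-associated virus by the retro-orbital route 3 weeks earlier, and lived on equal periods of light and dark. Each library came from cortex, thalamus or hypothalamus. Wild-type mice sampled at zeitgeber time (ZT, hours after lights on) 12.5 had received mCherry, a fluorescent control protein, or CREB, a transcription factor, or HDAC4CA, a constitutively active form of a class IIa histone deacetylase. Their 36 libraries hold RPKM, reads scaled to gene length and to library size. A second set of 84 libraries holds FPKM, the same quantity counted in fragments. In that set, wild-type mice received eGFP, another fluorescent control, and were sampled at ZT0.5 or ZT12.5. Sleepy mice, heterozygous for Sik3 lacking exon 13 (Sik3E13Δ/+), received eGFP or HDAC4CA and were sampled at both times, or received CREB and were sampled at ZT12.5. Every mouse therefore carried a virus, and the promoter of each vector and the cells that took it up are not given in the sources used here. Ages, and whether the 3 regions came from the same mice, are not given either.

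Oligodendrocytes wrap axons in compacted membrane, and the mature cells express large amounts of mRNA for the proteins and lipid enzymes of that membrane. OLIG2 specifies the lineage, SOX10 is a further transcription factor of it, and MYRF switches on the myelin genes at differentiation. Precursors, which carry PDGFRA and NG2 (the product of Cspg4), persist in the adult brain, where they divide and differentiate. In bulk tissue, fewer cells of a type and less of an RNA per cell cannot be told apart.

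For 22 of the 31 genes RefSeq gives a promoter on GRCm38.p6. The promoters of 5 of the genes named in the results are shown, as the 250 bases before the transcription start, 5′ to 3′ on the gene's strand. Capitals mark ACAAAG, a core of SOX sites, CTGGCAC, a core of MYRF sites, and CAGCTG, an E-box that OLIG proteins can bind, each searched on both strands (CTTTGT and GTGCCAG are the reverses). The sequences of Mag, Cnp, Hapln2 and Mobp are of membrane genes and Ugt8a is the lipid enzyme with the clearest time difference.
Mag (chr7:30914864-30915113, - strand): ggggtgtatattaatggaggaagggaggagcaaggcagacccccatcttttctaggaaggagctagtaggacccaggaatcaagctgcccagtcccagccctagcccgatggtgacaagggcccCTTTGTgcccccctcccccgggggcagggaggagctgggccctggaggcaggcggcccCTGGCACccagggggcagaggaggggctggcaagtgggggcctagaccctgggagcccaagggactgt
Cnp (chr11:100574689-100574938, + strand): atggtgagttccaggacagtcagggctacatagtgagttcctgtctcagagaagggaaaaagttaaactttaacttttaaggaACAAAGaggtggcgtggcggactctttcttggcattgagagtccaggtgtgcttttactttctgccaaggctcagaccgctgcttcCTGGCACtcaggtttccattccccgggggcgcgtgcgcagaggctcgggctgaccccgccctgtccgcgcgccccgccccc
Hapln2 (chr3:88027512-88027761, - strand): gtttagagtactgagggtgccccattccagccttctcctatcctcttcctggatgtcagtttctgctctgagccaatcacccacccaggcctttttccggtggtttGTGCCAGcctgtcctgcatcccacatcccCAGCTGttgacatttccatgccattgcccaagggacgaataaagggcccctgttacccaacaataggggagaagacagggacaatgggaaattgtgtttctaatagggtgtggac
Mobp (chr9:120149492-120149741, + strand): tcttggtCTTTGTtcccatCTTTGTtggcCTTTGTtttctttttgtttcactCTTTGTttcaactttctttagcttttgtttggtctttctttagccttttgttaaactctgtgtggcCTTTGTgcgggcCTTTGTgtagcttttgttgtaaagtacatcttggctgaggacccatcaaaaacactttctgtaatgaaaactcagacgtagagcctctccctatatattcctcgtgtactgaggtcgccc
Ugt8a (chr3:125938653-125938902, - strand): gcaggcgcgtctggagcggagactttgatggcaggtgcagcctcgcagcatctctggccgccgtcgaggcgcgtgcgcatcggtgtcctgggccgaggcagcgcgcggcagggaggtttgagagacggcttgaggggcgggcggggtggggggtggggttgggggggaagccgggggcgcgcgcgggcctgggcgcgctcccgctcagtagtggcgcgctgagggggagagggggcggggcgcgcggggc

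Mag and Cnp each hold 1 SOX and 1 MYRF match, Hapln2 holds 1 MYRF match and 1 E-box, Mobp holds 6 SOX matches, and Ugt8a holds none of the motifs. Promoters not shown include those of Mog, Ermn, Mal and Gjc3, also named in the results, which hold none of the motifs. For Mag, RefSeq gives further starts. The stretch at chr7:30914923-30915172 overlaps the one shown and holds 1 SOX and 1 MYRF match, while that at chr7:30914322-30914571 holds none of the motifs. In the window from 250 bases before to 50 bases after the start, the MYRF core was present in 4 of the 22 genes (18.2%) and in 5.73% of 27025 genes. The SOX core was present in 6 of the 22 (27.3%) and in 21% of all. The E-box was present in 3 of the 22 (13.6%) and in 18.3% of all. A match is a run of letters and not an observed binding site. Bases just after the start were found in a GENCODE transcript of the same gene for 23 of 30 member promoters.

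Depth was 13.5 to 28.1 M reads per library, with a median of 18.7 M. The tissue labels matched marker genes: in wild-type eGFP mice at ZT12.5, all 6 cortical identity genes were lower and all 6 thalamic ones higher in thalamus than in cortex, and all 8 hypothalamic ones were higher in hypothalamus than in cortex. Libraries of a distinct kind, with low levels of the 82 ribosomal protein genes measured, made up all thalamus and hypothalamus libraries of the RPKM set and replicate 4 of each of its cortex groups. Region and library kind therefore cannot be told apart in most of that set, and the regions are described first from the eGFP mice, which hold no library of that kind. The kind is not confined to ribosomal protein genes. Its deposited Gapdh levels were 4.79 to 7.18 RPKM, against 51.4 to 59.7 in the other RPKM libraries. Thalamus libraries carried very different amounts of choroid plexus RNA, given where it bears on a result.

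RNA levels of most of the myelin and oligodendrocyte lineage genes were highest in thalamus among the 3 regions. Myelin itself was not measured. Mbp, the myelin basic protein that compacts the membrane, had levels of 187, 193, 207 and 219 FPKM in thalamus, 72.7, 78.7, 71.9 and 76.9 in hypothalamus and 55.8, 59.1, 60.2 and 65.2 in cortex of wild-type eGFP mice at ZT12.5. The 3 groups did not overlap. The mean was 201 ± 14.4 (SD, n = 4) in thalamus, 75.1 ± 3.27 in hypothalamus and 60.1 ± 3.90 in cortex. On the log2 scale Mbp was 1.74 ± 0.06 (SE) higher in thalamus than in cortex, a 3.34-fold difference (limma, Benjamini-Hochberg adjusted p = 1.13e-08).

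Of the 31 genes, 30 were higher in thalamus than in cortex and none was lower, where 50.4% of all genes tested were called in either direction and 26.1% were called higher. Their median log2 difference was 1.47, against 0.02 over all genes tested. All 11 membrane genes were higher, with a median of 1.64, as were the 5 transcription factors (1.51), the 4 lipid enzymes (1.37), the 2 gap junction genes (1.71) and the 4 genes of secreted signals, iron and metabolism (1.48). The 5 genes of precursors and new oligodendrocytes had a median of 0.48, and 4 of them were called.

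By adjusted p the leading genes were Olig1 (a log2 difference of 1.40 ± 0.04), Mobp (1.81 ± 0.05), Myrf (1.67 ± 0.06), Mag (1.9 ± 0.07), Cnp (1.55 ± 0.06), Mbp, Bcas1 (1.70 ± 0.07) and Gjc3 (1.36 ± 0.06). Mobp, Mag and Cnp encode structural and adhesion proteins of myelin, and Bcas1 marks oligodendrocytes that have begun to myelinate. The largest difference, picked after the values were seen, was that of Hapln2, a link protein of the matrix at nodes of Ranvier. Its levels were 13, 12.8, 15.8 and 12 FPKM in thalamus, 3.94, 4.18, 4.43 and 4.87 in hypothalamus and 2.94, 2.48, 2.37 and 1.95 in cortex. The 3 groups did not overlap, and thalamus exceeded cortex by 2.42 ± 0.12 on the log2 scale, or 5.35-fold (limma, adjusted p = 1e-07). Sox10, a transcription factor of the lineage, had 14.0, 14.0, 18.1 and 15.8 FPKM in thalamus, 5.60, 5.59, 7.82 and 6.78 in hypothalamus and 4.71, 4.94, 6.02 and 5.75 in cortex. Its thalamic libraries lay above all the others, while those of cortex and hypothalamus overlapped.

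Pdgfra, the receptor of oligodendrocyte precursors, had a different order. Its levels were 3.43, 3.13, 3.46 and 3.51 FPKM in thalamus, 3.48, 3.42, 3.54 and 3.41 in cortex, and 4.75, 3.86, 4.92 and 4.6 in hypothalamus. Thalamus and cortex overlapped (log2 difference -0.03 ± 0.06, limma, adjusted p = 0.682), and all 4 hypothalamic libraries lay above both. Cspg4 and Gpr17, also of early stages, were higher in thalamus than in cortex by 0.48 ± 0.10 and 0.43 ± 0.09, the smallest of the 30 called differences, followed by that of Sirt2, a deacetylase of the myelin sheath (0.63 ± 0.07).

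Over the 31 genes, mean levels in thalamus of these wild-type eGFP mice at ZT12.5 spanned from 1.046 ± 0.0867 FPKM (SD, n = 4) for Enpp6, an ectoenzyme of newly formed oligodendrocytes, to 201 ± 14.4 for Mbp. Nkx6-2 had 9.32, 11.2, 12.3 and 10.4 FPKM in thalamus, 7.62, 8.89, 9.14 and 7.93 in hypothalamus and 3.58, 2.98, 3.43 and 3.72 in cortex, so that hypothalamus lay near thalamus and not near cortex for this gene, named after its values were seen. Gjb1, the connexin 32 gene, showed the opposite spacing, with means of 8.65 ± 0.859 FPKM in thalamus, 2.69 ± 0.472 in hypothalamus and 2.02 ± 0.272 in cortex. Enpp6 was at 0.491 ± 0.172 FPKM in hypothalamus and 0.474 ± 0.0738 in cortex, which overlapped.

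**Figure D1:**
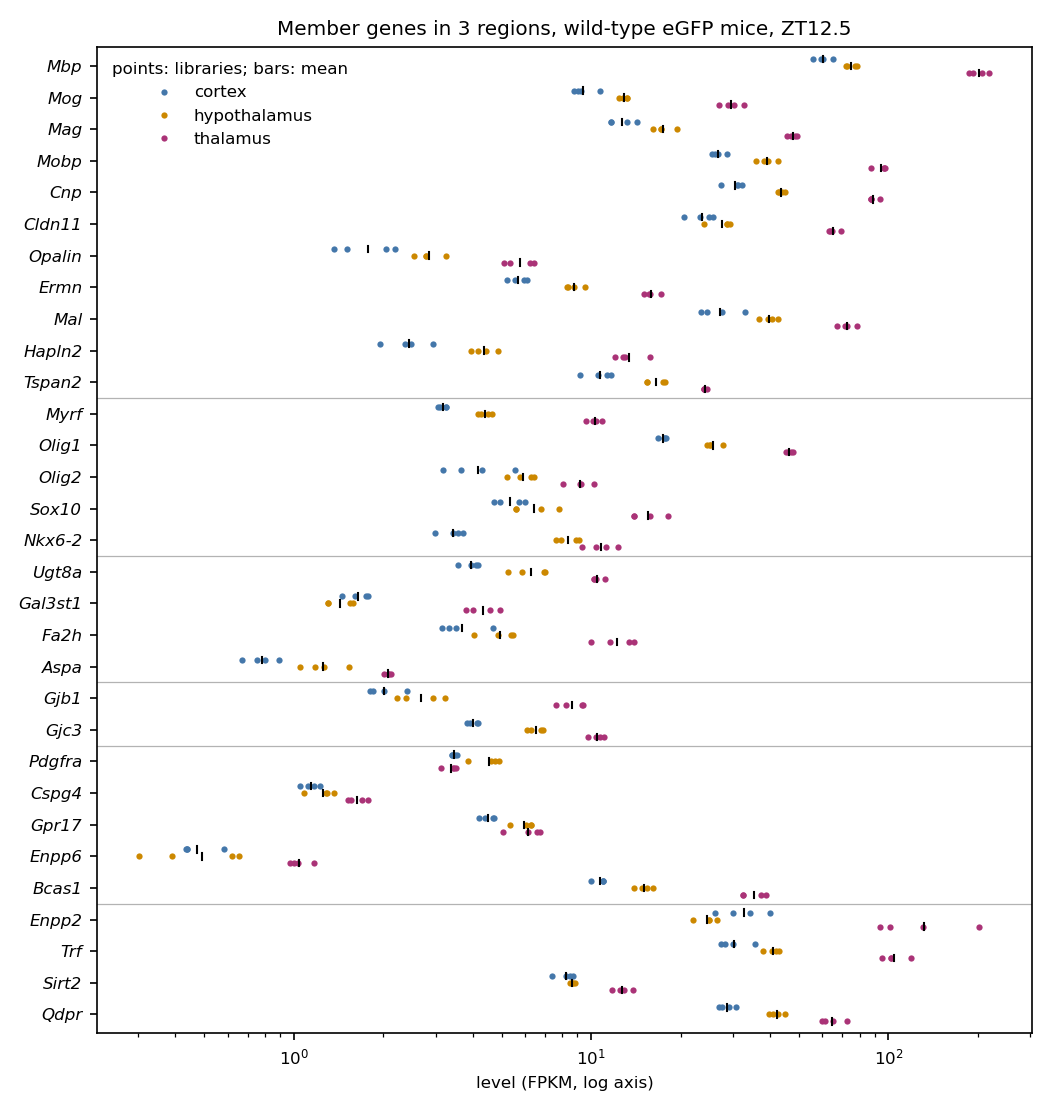
Levels of the 31 genes in wild-type eGFP mice at ZT12.5, in FPKM on a log axis, with 1 point per library (n = 4 per region) and a bar at each mean; grey lines separate the roles. Thalamus lies to the right of cortex for every gene but Pdgfra, and Mbp reaches 201 ± 14.4 FPKM (SD) in thalamus.

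The other control groups gave similar counts, measured in separate libraries. At ZT0.5 in eGFP mice, 28 of the 31 genes were higher in thalamus than in cortex (45.2% of all genes called), with a median of 1.40. Pdgfra (0.11 ± 0.08), Cspg4 (0.27 ± 0.11) and Gpr17 (0.23 ± 0.11) were not called there. In mCherry mice, 31 of 31 were higher (56.3% of all genes called), with a median of 1.28, and thalamus and library kind are confounded in that comparison. Of 42 other oligodendrocyte genes, 38 were higher and 2 lower in thalamus than in cortex of eGFP mice at ZT12.5, with a median of 1.34.

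Hypothalamus lay between the other regions for most of the genes. Against cortex in eGFP mice at ZT12.5, 25 of 31 were higher, 1 was lower and 5 were not called, with 55.7% of all genes called and a median of 0.46. All 11 membrane genes and both gap junction genes were called higher, but the calls of Cldn11 (0.23) and Gjb1 (0.39) were each lost in 6 of 14 alternatives (adjusted p up to 0.102 and 0.0857, limma), and the groups of both overlapped. The leading genes were Nkx6-2, a homeobox factor of the lineage (1.27 ± 0.09), Olig1 (0.55 ± 0.05), Gjc3 (0.68 ± 0.06), Qdpr (0.56 ± 0.06), Cnp (0.52 ± 0.05), Mobp (0.54 ± 0.06), Ermn (0.61 ± 0.07) and Bcas1 (0.49 ± 0.06). Mbp was 0.32 ± 0.05 higher and Pdgfra 0.37 ± 0.08 higher (limma, adjusted p = 0.00063 and 0.00261). Sox10 (0.26 ± 0.12), Gal3st1 (-0.19 ± 0.11), Cspg4 (0.13 ± 0.11), Enpp6 (0.00 ± 0.22) and Sirt2 (0.08 ± 0.06) were not called. At ZT0.5, 25 were higher and 1 lower (50.9% of all genes called), and in mCherry mice 25 were higher and none lower (61.6%), with medians of 0.48 and 0.51.

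Against hypothalamus, 29 of the 31 genes were higher in thalamus in eGFP mice at ZT12.5, where 56.7% of all genes were called, and their median difference was 1.00. Cnp (1.03 ± 0.04), Mbp (1.42 ± 0.06), Mag (1.44 ± 0.06), Mobp (1.27 ± 0.06), Myrf (1.21 ± 0.05), Mog (1.19 ± 0.06), Trf (1.35 ± 0.07) and Cldn11 (1.24 ± 0.06) had the smallest adjusted p. Pdgfra was lower by 0.41 (log2 difference -0.41 ± 0.08, limma, adjusted p = 0.00173), and Gpr17 was not called (0.03 ± 0.09). At ZT0.5, 27 genes were higher and 1 lower (38.2% of all genes called), the lower one being Pdgfra (-0.19 ± 0.06), whose call was lost in 10 of 14 alternatives (limma, adjusted p up to 0.096). In mCherry mice 27 were higher and 2 lower (52.6%), among the latter Pdgfra (-0.22 ± 0.06). The second gene that was lower in mCherry mice was Gpr17 (-0.26 ± 0.06). These comparisons share their groups pairwise, so the values stand side by side and are not independent of each other.

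Enpp2, which encodes the secreted enzyme autotaxin, behaved differently from the other members. Its levels were 201, 130, 93.6 and 101 FPKM in thalamus, 29.9, 40.1, 34.3 and 26.1 in cortex and 24.9, 22.1, 25.0 and 26.6 in hypothalamus of wild-type eGFP mice at ZT12.5. Thalamus exceeded cortex by 1.96 ± 0.22 (limma, adjusted p = 4.53e-05). Hypothalamus was lower than cortex by 0.39 (log2 difference -0.39 ± 0.12, adjusted p = 0.0196) and at ZT0.5 by 0.25 (-0.25 ± 0.08, adjusted p = 0.0245). Both differences changed sign without rescaling, to 0.0922 and 0.107. Enpp2 is expressed by the choroid plexus as well as by oligodendrocytes. The summed level of 13 choroid plexus genes, which do not include Enpp2, was 304 to 752 FPKM in these thalamus libraries, 1.77 to 49.5 in cortex and 7.39 to 8 in hypothalamus. All 13 were higher in thalamus than in cortex, with a median difference of 2.93, and their part in the Enpp2 difference was not tested.

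Across the 28 thalamus libraries of the FPKM set, Enpp2 ran from 27.5 to 360 FPKM and the choroid plexus sum from 9.90 to 1660. In the 28 hypothalamus libraries Enpp2 ran from 18 to 200 FPKM and the sum from 6.25 to 771, and in the 28 cortex libraries from 18.4 to 40.1 and from 1.58 to 66.4. The clearest case within a group was the thalamus of Sleepy eGFP mice at ZT0.5, where Enpp2 was 47.5, 51.1, 279 and 326 FPKM in libraries whose choroid plexus sums were 13.3, 24.3, 1044 and 1257. The libraries with high Enpp2 were those with high choroid plexus genes.

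**Figure D2:**
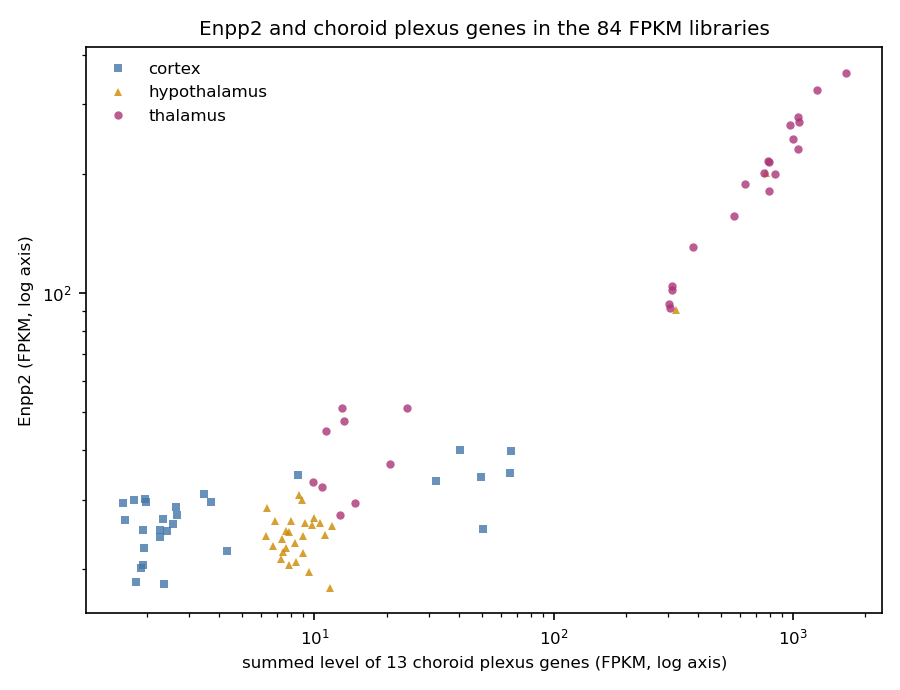
Enpp2 level against the summed level of 13 choroid plexus genes in the 84 FPKM libraries, both in FPKM on log axes, 1 point per library and 28 per region. Thalamus libraries spread from 27.5 to 360 FPKM of Enpp2 as the sum runs from 9.90 to 1660, and 2 hypothalamus libraries with high sums lie among them.

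Time of day was compared between ZT12.5, just after lights off, and ZT0.5, just after lights on, in eGFP mice. In wild-type thalamus, 7 of the 31 genes were higher at ZT12.5 and 3 were lower, while 21 were not called. Among all genes, 14.7% were called higher and 10.5% lower, 25.2% in all, and the median difference of the members was 0.13 against 0.01 over all genes tested. The higher genes were the membrane genes Mag, Cnp, Cldn11, Mog and Hapln2 and the transcription factors Olig1 and Myrf. The lower ones were Ugt8a, Ermn and Gjc3.

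Mag, an adhesion protein of the innermost myelin layer, had 33.4, 35.4, 35.7 and 35.8 FPKM at ZT0.5 and 47.0, 49.3, 48.4 and 45.7 at ZT12.5. The groups did not overlap, and the log2 difference was 0.44 ± 0.04 (limma, adjusted p = 0.000289). Olig1, a factor of the lineage, had 37.0, 38.4, 37.2 and 37.4 FPKM at ZT0.5 and 46.9, 45.9, 45.3 and 47.6 at ZT12.5. All ZT12.5 libraries were again the higher, by 0.31 ± 0.04 (adjusted p = 0.00075).

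Cldn11, the claudin of myelin tight junctions, rose from 51.1, 50.4, 55.5 and 53.6 FPKM to 63.5, 64.4, 69.5 and 63.2, a difference of 0.31 ± 0.05 (limma, adjusted p = 0.00231). Mog, a surface glycoprotein of myelin, rose from 24.2, 22.2, 23.9 and 24.8 FPKM to 30.2, 32.6, 28.9 and 26.9 (0.31 ± 0.06, adjusted p = 0.00653). Neither gene's groups overlapped. Cnp rose by 0.29 ± 0.04, Myrf by 0.30 ± 0.06 and Hapln2 by 0.60 ± 0.12 (adjusted p = 0.00224, 0.00631 and 0.00772).

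Ugt8a, which makes the galactolipids of myelin, moved the other way. Its levels in wild-type thalamus were 12.9, 14.1, 15.7 and 16.3 FPKM at ZT0.5 and 10.2, 10.2, 11.2 and 10.4 at ZT12.5, without overlap (-0.48 ± 0.07, limma, adjusted p = 0.00207). Ermn, a cytoskeletal protein of oligodendrocytes, went from 19.2, 18.9, 23.1 and 20.1 FPKM to 15.7, 15.7, 17.3 and 15.0 (-0.35 ± 0.07, adjusted p = 0.00681). Every ZT0.5 library of Ermn lay above every ZT12.5 library.

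Gjc3, the connexin 29 gene, had a difference of -0.18 ± 0.05 (limma, adjusted p = 0.0259) in wild-type thalamus. That call was lost without replicate 1 or 4 of ZT12.5 (adjusted p = 0.0704 and 0.0609) and without replicate 3 or 4 of ZT0.5 (0.0558 and 0.0668). It was also lost without the filter on low values (0.0519) and with the replicate block (0.0504). Without rescaling, 5 members were called in wild-type thalamus, 3 higher and 2 lower, and Cnp, Cldn11, Myrf, Mog and Gjc3 were no longer among them. The choroid plexus sum was 13 to 966 FPKM in the ZT0.5 libraries and 304 to 752 at ZT12.5, with 0 of its 13 genes called. Of 42 other oligodendrocyte genes, 7 were higher, including Tubb4a (0.41), Gsn (0.47), Rhog (0.47) and Sox8 (0.32), and 2 were lower.

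In Sleepy thalamus none of the 31 genes was higher at ZT12.5 and 16 were lower. Among all genes tested, 21.3% were called in either direction and 9.93% were called lower, and the median difference of the members was -0.23 against 0.01 over all genes tested. By role, the lower genes comprised 6 of 11 membrane genes, 2 of 5 transcription factors, 2 of 4 lipid enzymes, both gap junction genes, 2 of 5 genes of early stages and 2 of 4 of the last group.

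Ugt8a had 15.2, 15.8, 14.7 and 15.2 FPKM at ZT0.5 and 8.26, 9.47, 8.71 and 8.17 at ZT12.5 in Sleepy mice, a log2 difference of -0.81 ± 0.06 (limma, adjusted p = 0.000343). Ermn had 24.5, 22.3, 22.6 and 21.9 FPKM and then 12.2, 14.5, 13.5 and 12.3 (-0.80 ± 0.06, adjusted p = 0.000343). For both genes the groups were far apart relative to their spread.

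Mal, a proteolipid that sorts myelin membrane, had 71.6, 77.1, 73.1 and 69.8 FPKM at ZT0.5 and 47.8, 58.4, 55.2 and 48.9 at ZT12.5 in Sleepy mice (-0.47 ± 0.07, limma, adjusted p = 0.00226). In wild-type mice its groups overlapped, with 67.3, 63.8, 78.8 and 70.9 FPKM and then 78.5, 71.2, 72.6 and 67.3. Mobp likewise went from 93.4, 94.9, 93.8 and 86.9 FPKM to 61.2, 74.3, 76.4 and 63.9 in Sleepy mice (-0.43 ± 0.07, adjusted p = 0.00469), while its wild-type levels of 98.3, 71.8, 76.9 and 101 FPKM and of 87.2, 96.5, 96.4 and 97.2 overlapped. Gjc3 had 12.4, 13.5, 11.4 and 13.9 FPKM at ZT0.5 and 8.09, 8.94, 8.49 and 8.61 at ZT12.5 (-0.58 ± 0.07, adjusted p = 0.00114).

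Aspa, which releases acetate from N-acetylaspartate, fell by 0.65 on the log2 scale, Bcas1 by 0.41 and Qdpr, a reductase of biopterin, by 0.23 (limma, adjusted p = 0.00197, 0.00495 and 0.00503). Sox10 was also lower (-0.33 ± 0.08, adjusted p = 0.0146), and so was Mbp (-0.26 ± 0.06, adjusted p = 0.0203). The Mbp call was lost without replicate 4 of ZT12.5 or replicate 1 of ZT0.5 (adjusted p = 0.0537 and 0.0533). That of Trf, the iron carrier transferrin, named here for this reason, was lost without replicate 1 of ZT12.5 (-0.21 ± 0.05 with all libraries, adjusted p = 0.0538 without it).

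The genes that rose in wild-type thalamus had no call in Sleepy mice. Mag had 38.1, 39.8, 37.6 and 34.8 FPKM at ZT0.5 and 33.9, 41.1, 38.0 and 36.5 at ZT12.5 in Sleepy mice, with overlap (-0.01 ± 0.06, limma, adjusted p = 0.93). Olig1 had 37.3, 38.4, 36.4 and 36.6 FPKM and then 43.2, 41.5, 39.2 and 38.0 (0.12 ± 0.05, adjusted p = 0.103). Mog (-0.18 ± 0.06, adjusted p = 0.0594) and Myrf (-0.01 ± 0.07, adjusted p = 0.909) were not called.

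**Figure D3:**
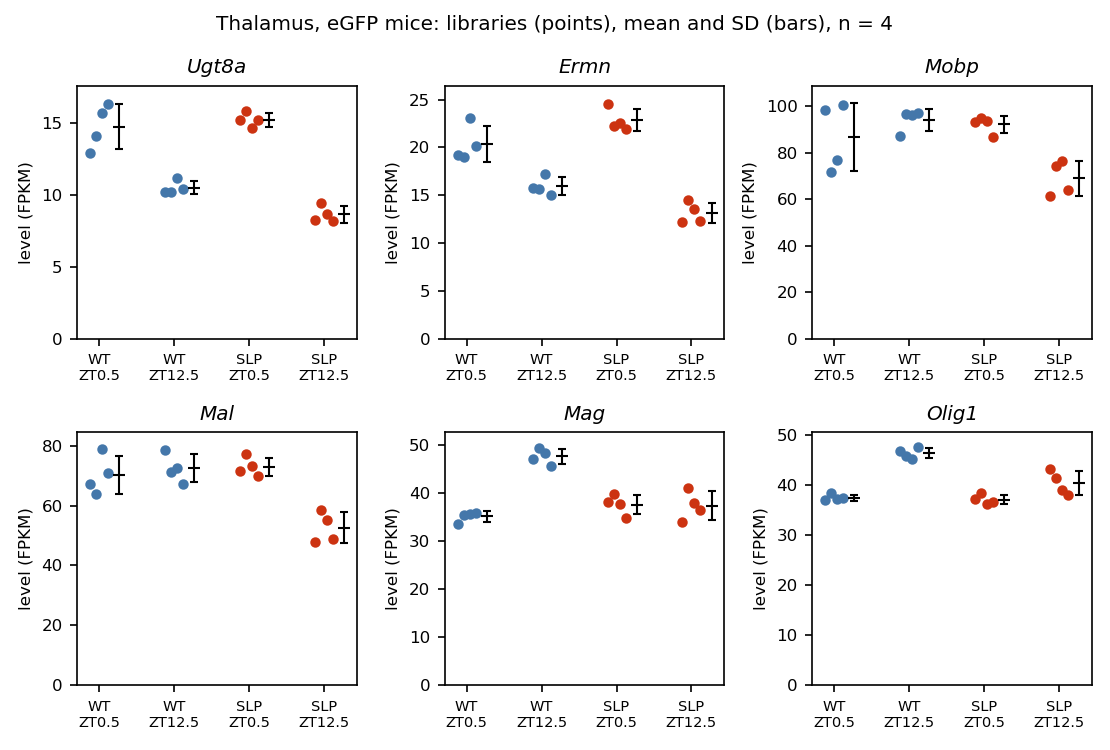
Levels of Ugt8a, Ermn, Mobp, Mal, Mag and Olig1 in the thalamus of eGFP mice, in FPKM, by genotype (WT, wild type; SLP, Sleepy) and time, with 1 point per library and the mean with its SD (n = 4). Ugt8a and Ermn are lower at ZT12.5 in both genotypes, while Mag and Olig1 lie higher at ZT12.5 in wild-type mice (47.0, 49.3, 48.4 and 45.7 FPKM for Mag).

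The sum of the choroid plexus genes was 13.3 to 1257 FPKM at ZT0.5 and 566 to 1660 at ZT12.5 in Sleepy thalamus, with overlap. Their median difference was 1.81, and 0 of 13 were called. In the 2 ZT0.5 libraries with sums of 1044 and 1257, Ugt8a was at 14.7 and 15.2 FPKM, against 15.2 and 15.8 in the 2 with 13.3 and 24.3. The part of choroid plexus RNA in the time differences of the members was not tested. Of 42 other oligodendrocyte genes, 1 was higher and 15 were lower at ZT12.5, including Adamts4 (-0.71), Gpr37 (-0.35) and Nkx2-2 (-0.63), and their median was -0.13.

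The test of the difference between the genotypes' time differences called none of the 31 genes and 0% of all genes in thalamus. It used the libraries of both time comparisons and is not independent of them. Its values were below 0 for 29 of the 31, where 52.9% of all genes were below 0, and 21 had an unadjusted p under 0.05. The members share a lineage and libraries and were chosen with earlier results known, so such counts are not independent evidence. The median was -0.33 against -0.01 over all genes tested. The smallest p were those of Mag (-0.45 ± 0.08, unadjusted p = 2.75e-05, limma, adjusted p = 0.154), Mog (-0.50 ± 0.09, adjusted p = 0.187) and Cldn11 (-0.53 ± 0.10, adjusted p = 0.269). Limma voom on recovered reads called 5 of the 31. For all genes, the shares at an unadjusted p under 0.05 and by voom are not given here. The median of the 13 choroid plexus genes in this test was 1.68, and their part in it was not tested.

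**Figure D4:**
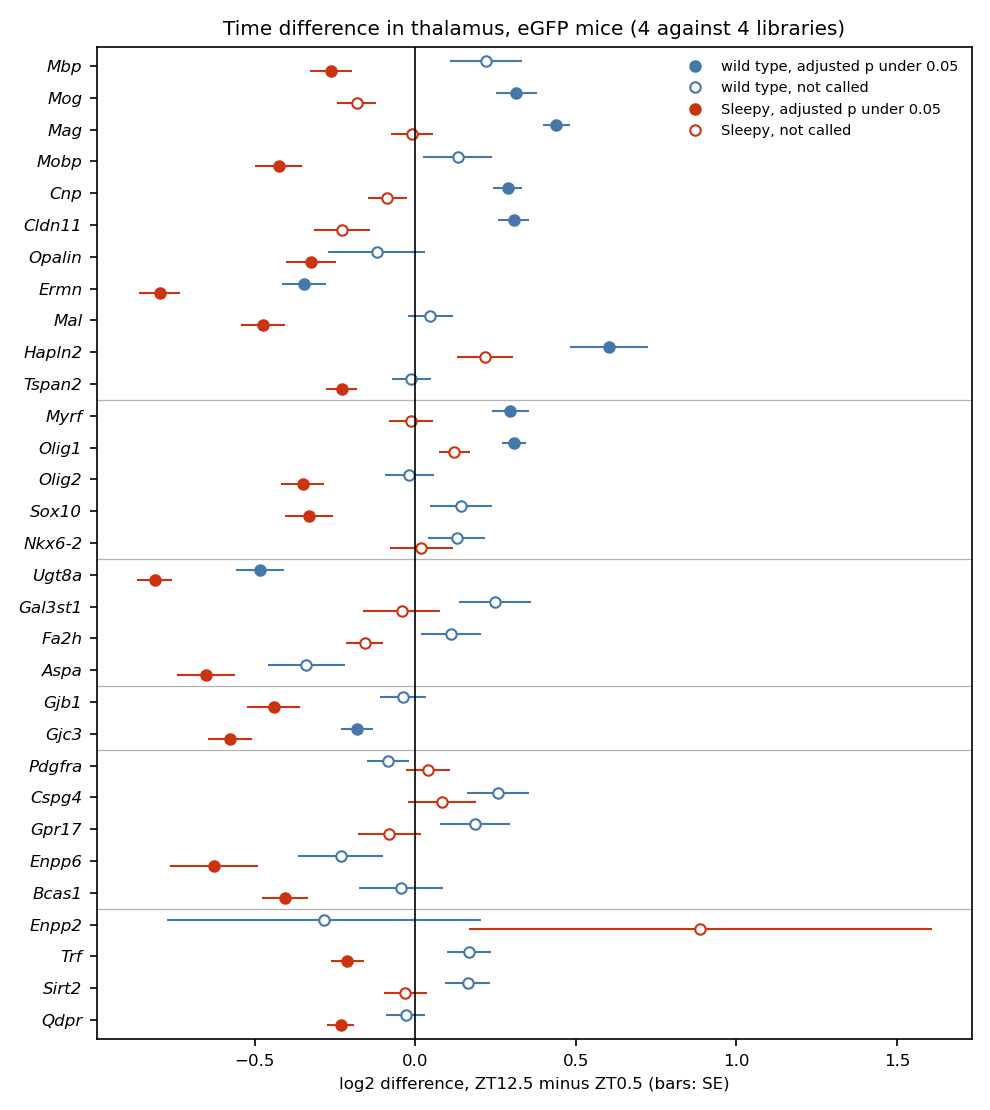
Log2 difference between ZT12.5 and ZT0.5 in thalamus of eGFP mice for the 31 genes, wild type in blue and Sleepy in red, with SE bars from limma (4 against 4 libraries) and filled points where the adjusted p was under 0.05. The Sleepy value lies to the left of the wild-type value for 29 of 31 genes, the exceptions being Pdgfra and Enpp2. No member was called by limma on log values in the test of that difference.

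Comparing the genotypes at a single time gave no call for any member. These comparisons use the libraries of the time comparisons and are not independent of them. In thalamus at ZT12.5, 29 of the 31 genes were at lower mean levels in Sleepy than in wild-type mice, against 53.4% of all genes, with a median of -0.27 against -0.01. For 19 members, among them all 11 membrane genes, every Sleepy library lay below every wild-type library, which was so for 2.69% of all genes tested. Members of a shared lineage can move together in the same libraries, so these counts are not independent evidence. None passed the adjusted threshold, where 0% of all genes did, and 25 had an unadjusted p under 0.05. Mal (-0.46 ± 0.07, limma, adjusted p = 0.221), Mobp (-0.46 ± 0.08, adjusted p = 0.231) and Mag (-0.35 ± 0.06, adjusted p = 0.231) came first, and limma voom on recovered reads called 3. The shares of all genes at an unadjusted p under 0.05 and by voom are not given here. Pdgfra went the other way (0.18 ± 0.07, adjusted p = 0.578). Of the 42 other oligodendrocyte genes, 38 were below 0, with a median of -0.19. The 13 choroid plexus genes had a median of 1.00, and their sum was 566 to 1660 FPKM in Sleepy and 304 to 752 in wild-type libraries.

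In thalamus at ZT0.5 the median was 0.08, 5 members had an unadjusted p under 0.05 and voom called 0, with 0.0359% of all genes called, and the smallest p were those of Qdpr (0.15 ± 0.04, limma, adjusted p = 0.47), Gjb1 (0.18 ± 0.06, adjusted p = 0.623) and Mog (0.13 ± 0.05, adjusted p = 0.66). In cortex and hypothalamus 0% of all genes were called at either time, voom called 0 members, and 0 members in both regions at ZT0.5, 4 in cortex and 3 in hypothalamus at ZT12.5 had an unadjusted p under 0.05. Counts at an unadjusted p lack the share of all genes here and do not set the members apart. The smallest adjusted p there was 0.53, for Gal3st1 in hypothalamus at ZT12.5 (0.38 higher in Sleepy mice), followed by Mbp (0.15) and Qdpr (0.11). In cortex at ZT12.5 Mobp (-0.23), Mog (-0.32) and Cldn11 (-0.24) came first, with adjusted p from 0.565 to 0.735. At ZT0.5, Enpp2, Gal3st1 and Gjc3 in cortex had adjusted p of 0.907 or more, and Olig1, Opalin and Nkx6-2 in hypothalamus 0.999.

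Outside the thalamus, Ugt8a was the member with a time difference. In wild-type cortex it went from 5.76, 4.69, 5.34 and 6.32 FPKM at ZT0.5 to 4.16, 4.12, 3.94 and 3.58 at ZT12.5, without overlap (-0.47 ± 0.09, limma, adjusted p = 0.043). It was the only member called, among 1.58% of all genes. The call was lost without any 1 of the 4 libraries of ZT12.5 and without replicate 1, 3 or 4 of ZT0.5 (adjusted p = 0.0635 to 0.115), and with the replicate number as a block it was 0.0928 and without the filter 0.122. In Sleepy cortex Ugt8a went from 6.07, 5.43, 5.30 and 5.88 FPKM to 4.29, 3.81, 3.75 and 3.44, again without overlap (-0.56 ± 0.08, adjusted p = 0.00707), the only call among the members, with 6.14% of all genes called. The test of the difference between genotypes called no member in cortex, with adjusted p from 0.772 for Mobp and Mog to 0.783 for Qdpr.

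In hypothalamus no member was called between the times, while 11 in wild-type and 9 in Sleepy mice had an unadjusted p under 0.05 and voom called 2 in each. Without the shares of all genes, which are not given here, these counts do not set the members apart. In wild-type mice, with 0.22% of all genes called, Nkx6-2 (-0.43, limma, adjusted p = 0.088), Olig1 (-0.20, adjusted p = 0.198) and Mal (0.23, adjusted p = 0.215) came first. In Sleepy mice, with 0.366% called, Gpr17 (-0.28, adjusted p = 0.0892), Olig2 (-0.37, adjusted p = 0.161) and Sox10 (-0.24, adjusted p = 0.285) did. Ugt8a, called in cortex and thalamus, had -0.27 ± 0.10 in wild-type and -0.17 ± 0.10 in Sleepy hypothalamus. The test between genotypes gave an adjusted p of 0.99 for Gpr17, Gjc3 and Cldn11, its leading members.

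HDAC4CA was compared with the control vector in each region, in wild-type mice at ZT12.5 and in Sleepy mice at both times. In Sleepy mice the eGFP libraries are those of the time and genotype comparisons, so the results are not independent. Few members were called, beside 0.0176% to 12.1% of all genes per comparison. By limma on log values all calls of members were of lower levels. The share of all genes called lower is given only for Sleepy thalamus at ZT0.5. Elsewhere the direction of the calls does not set the members apart. The medians of the 31 genes were -0.16 in wild-type cortex, -0.16 and -0.04 in Sleepy cortex at ZT0.5 and ZT12.5, -0.10 in wild-type thalamus, -0.16 and 0.02 in Sleepy thalamus, -0.20 in wild-type hypothalamus and -0.18 and -0.25 in Sleepy hypothalamus. Over all genes tested the medians of these comparisons were -0.01 to 0.01.

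In Sleepy thalamus at ZT0.5, 4 members were lower with HDAC4CA and none higher, where 8.84% of all genes were called and 3.27% were called lower. The eGFP libraries here were also the ZT0.5 group of the Sleepy time comparison. Cnp, an enzyme that keeps cytoplasmic channels within myelin open, had 63.8, 55.3, 56.7 and 65.9 FPKM with HDAC4CA and 74.0, 81.1, 74.4 and 74.9 with eGFP (-0.34 ± 0.06, limma, adjusted p = 0.0103). Mog had 20.6, 16.9, 17.7 and 22.7 FPKM against 26.4, 26.5, 25.5 and 25.7 (-0.43 ± 0.08, adjusted p = 0.0125). The groups of both genes were apart.

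Mal in the same comparison had 62.6, 58.9, 60.1 and 63.8 FPKM with HDAC4CA against 71.6, 77.1, 73.1 and 69.8 (-0.25 ± 0.05, limma, adjusted p = 0.00944). With the replicate number as a block its adjusted p was 0.0541. Sox10 had 12.3, 12.8, 10.1 and 12.2 FPKM against 15.1, 15.4, 13.8 and 15.3 (-0.33 ± 0.08, adjusted p = 0.0247). The Sox10 call was lost without replicate 1, 2 or 4 of the eGFP group (adjusted p = 0.062, 0.0653 and 0.0643) and without the filter (0.0681). Neither gene's groups overlapped. Of the 31 genes 29 were below 0, against 50.3% of all genes, and 11 were called without rescaling and 11 by limma voom on recovered reads. Sharing a lineage and libraries, the members do not give independent counts. The shares of all genes called in these alternatives are not given here. Without replicate 4 of the HDAC4CA group, 8 members were called. The choroid plexus sum was 11.2 to 1062 FPKM with HDAC4CA and 13.3 to 1257 with eGFP, and 0 of the 13 genes were called.

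At ZT12.5 in Sleepy thalamus only Enpp2 was called, among 12.1% of all genes. It had 32.2, 33.2, 27.5 and 29.5 FPKM with HDAC4CA and 231, 156, 200 and 360 with eGFP, a 7.38-fold lower level (log2 difference -2.88 ± 0.21, limma, adjusted p = 6.06e-05). The choroid plexus sum was 9.90 to 14.7 FPKM with HDAC4CA and 566 to 1660 with eGFP, all 13 genes were lower, with a median of -4.14, and Ttr, the transthyretin made by that epithelium, was at 5.93 to 11.1 against 531 to 1562 FPKM. No group of 4 thalamus libraries outside this one had all its sums that low, and the part of choroid plexus RNA in the Enpp2 difference was not tested. Mbp (-0.04 ± 0.08), Mog (-0.01 ± 0.11) and Sox10 (0.03 ± 0.08) were not called there.

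In Sleepy cortex at ZT0.5, Cnp was the member called, among 4.16% of all genes, with 27.2, 24.3, 24.7 and 25.6 FPKM under HDAC4CA and 32.6, 29.5, 32.4 and 29.1 under eGFP (-0.28 ± 0.06, limma, adjusted p = 0.0257). The groups were apart, but the call was lost without replicate 1, 2 or 3 of eGFP (adjusted p = 0.0711, 0.0537 and 0.0789) and without replicate 2, 3 or 4 of HDAC4CA (0.0715, 0.0679 and 0.0606). It was also lost with the replicate block (0.0508) and without the filter on low values (0.0753). At ZT12.5, among 10.6% of all genes, Mbp and Qdpr were called. Mbp had 54.0, 51.6, 53.8 and 52.5 FPKM against 59.4, 61.5, 63.3 and 56.4 (-0.18 ± 0.04, adjusted p = 0.0254). Qdpr had 28.4, 25.6, 26.2 and 24.9 FPKM against 30.0, 29.1, 32.7 and 31.2 (-0.23 ± 0.05, adjusted p = 0.0256). Both sets of groups were apart, and both calls were lost without rescaling (adjusted p = 0.143 and 0.13) and without the filter (0.0525 and 0.0634). The Mbp call was also lost without replicate 2 or 3 of eGFP (0.0599 and 0.0793) or replicate 2 or 4 of HDAC4CA (0.07 and 0.061). That of Qdpr was lost without replicate 3 or 4 of eGFP (0.0778 and 0.0661) or replicate 2, 3 or 4 of HDAC4CA (0.067, 0.0557 and 0.0678), and with the replicate block (0.0508).

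In wild-type cortex, Gal3st1, which sulfates galactolipids, was the member called, among 5.6% of all genes. It had 1.34, 1.25, 1.51 and 1.13 RPKM with HDAC4CA and 1.70, 1.65, 1.96 and 1.99 with mCherry, without overlap (-0.46 ± 0.11, limma, adjusted p = 0.0419). With the replicate block the adjusted p was 0.0585, and without the libraries of the low kind it was 0.177. The call was lost without any single mCherry library (adjusted p = 0.0821, 0.0713, 0.126 and 0.109 for replicates 1 to 4) and without replicate 2 or 4 of HDAC4CA (0.0987 and 0.0933), as well as without the filter (0.104) and, for this gene, by voom (0.0556). Without replicate 1 of HDAC4CA 4 members were called. In wild-type thalamus, Aspa was called, among 6.47% of all genes, with 2.62, 2.39, 2.81 and 2.36 RPKM against 3.279, 3.15, 3.19 and 3.47, without overlap (-0.35 ± 0.07, adjusted p = 0.0136). That call was lost without replicate 4 of mCherry (adjusted p = 0.0529). Limma voom on recovered reads called 3 members there, 2 higher and 1 lower, with the share of all genes not given here.

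In hypothalamus most members had lower means with HDAC4CA in all 3 settings, and 1 call was made. In wild-type mice 27 of 31 were below 0 (51.4% of all genes), in Sleepy mice 27 at ZT0.5 (49.2%) and 29 at ZT12.5 (48.2%). As the members share a lineage and libraries, these counts are not independent evidence. Gpr17, a receptor of committed precursors, had 3.83, 3.88, 4.17 and 3.74 FPKM with HDAC4CA and 5.19, 5.59, 5.71 and 5.83 with eGFP at ZT12.5, without overlap. Its log2 difference was -0.50 (limma, adjusted p = 0.0395), with 0.0693% of all genes called. The call was lost without any 1 of the 8 libraries (adjusted p = 0.0522 to 0.13), with the replicate block (0.183) and with a pseudocount of 1 (0.0504). At ZT0.5 (0.0176% of all genes called) Tspan2 (-0.29, adjusted p = 0.336), Gpr17 (-0.39, adjusted p = 0.356) and Gal3st1 (-0.44, adjusted p = 0.376) came first. In wild-type mice (0.122% called) Qdpr (-0.21, adjusted p = 0.15), Tspan2 (-0.28, adjusted p = 0.159) and Aspa (-0.47, adjusted p = 0.192) did. There 11 members had an unadjusted p under 0.05 and voom called 0, and in Sleepy mice at ZT0.5 these counts were 10 and 1. The matching shares of all genes are not given here, so such counts do not set the members apart.

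Whether the HDAC4CA difference itself differed between ZT0.5 and ZT12.5 in Sleepy mice was tested in each region and called no member, among 0% of all genes, by limma on log values or by voom. An unadjusted p under 0.05 was found for 11 members in thalamus, 2 in cortex and 0 in hypothalamus. Lacking the share of all genes, not given here, these counts do not set the members apart. In thalamus the leading members were Mag (0.42), Mal (0.31) and Sox10 (0.36), each with an adjusted p of 0.495 (limma). In cortex they were Tspan2, Hapln2 and Mog, with adjusted p of 0.63 to 0.719, and in hypothalamus Ugt8a, Olig1 and Ermn, with an adjusted p of 1.

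CREB was compared with the same control libraries as HDAC4CA, so the 2 transgenes' values are not independent. The medians of the 31 genes were 0.04 in wild-type cortex, 0.06 in wild-type thalamus, 0.00 in wild-type hypothalamus, and 0.02, 0.08 and -0.01 in Sleepy cortex, thalamus and hypothalamus. Hapln2 in Sleepy thalamus was the only member called, with 13.1, 13.8, 12.7 and 13 FPKM under CREB and 8.90, 11.3, 10.04 and 10.8 under eGFP (0.37 ± 0.07, limma, adjusted p = 0.0234), among 4.21% of all genes. The groups were apart, and the call was lost without replicate 3 of eGFP (adjusted p = 0.0544) or replicate 1 or 4 of CREB (0.0645 and 0.0587), and without the filter (0.0666).

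Elsewhere CREB gave no call, by limma on log values or by voom, and 0 to 4 members per comparison had an unadjusted p under 0.05, with the share of all genes not given here. In wild-type thalamus, with 2.9% of all genes called, Olig2 (0.16, limma, adjusted p = 0.275), Qdpr (0.10, adjusted p = 0.283) and Gjb1 (0.15, adjusted p = 0.302) came first. In Sleepy cortex (0.0613% called) Hapln2 (0.38, adjusted p = 0.26), Mog (0.23, adjusted p = 0.449) and Ugt8a (0.20, adjusted p = 0.473) did, and in wild-type cortex (0.0498% called) Myrf (0.15, adjusted p = 0.819), Trf and Gal3st1. In Sleepy hypothalamus (0.00575% called) they were Gal3st1 (-0.45, adjusted p = 0.811), Nkx6-2 (-0.29) and Hapln2 (0.25), and in wild-type hypothalamus (0% called) Bcas1, Sirt2 and Pdgfra, with an adjusted p of 1.

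**Figure D5:**
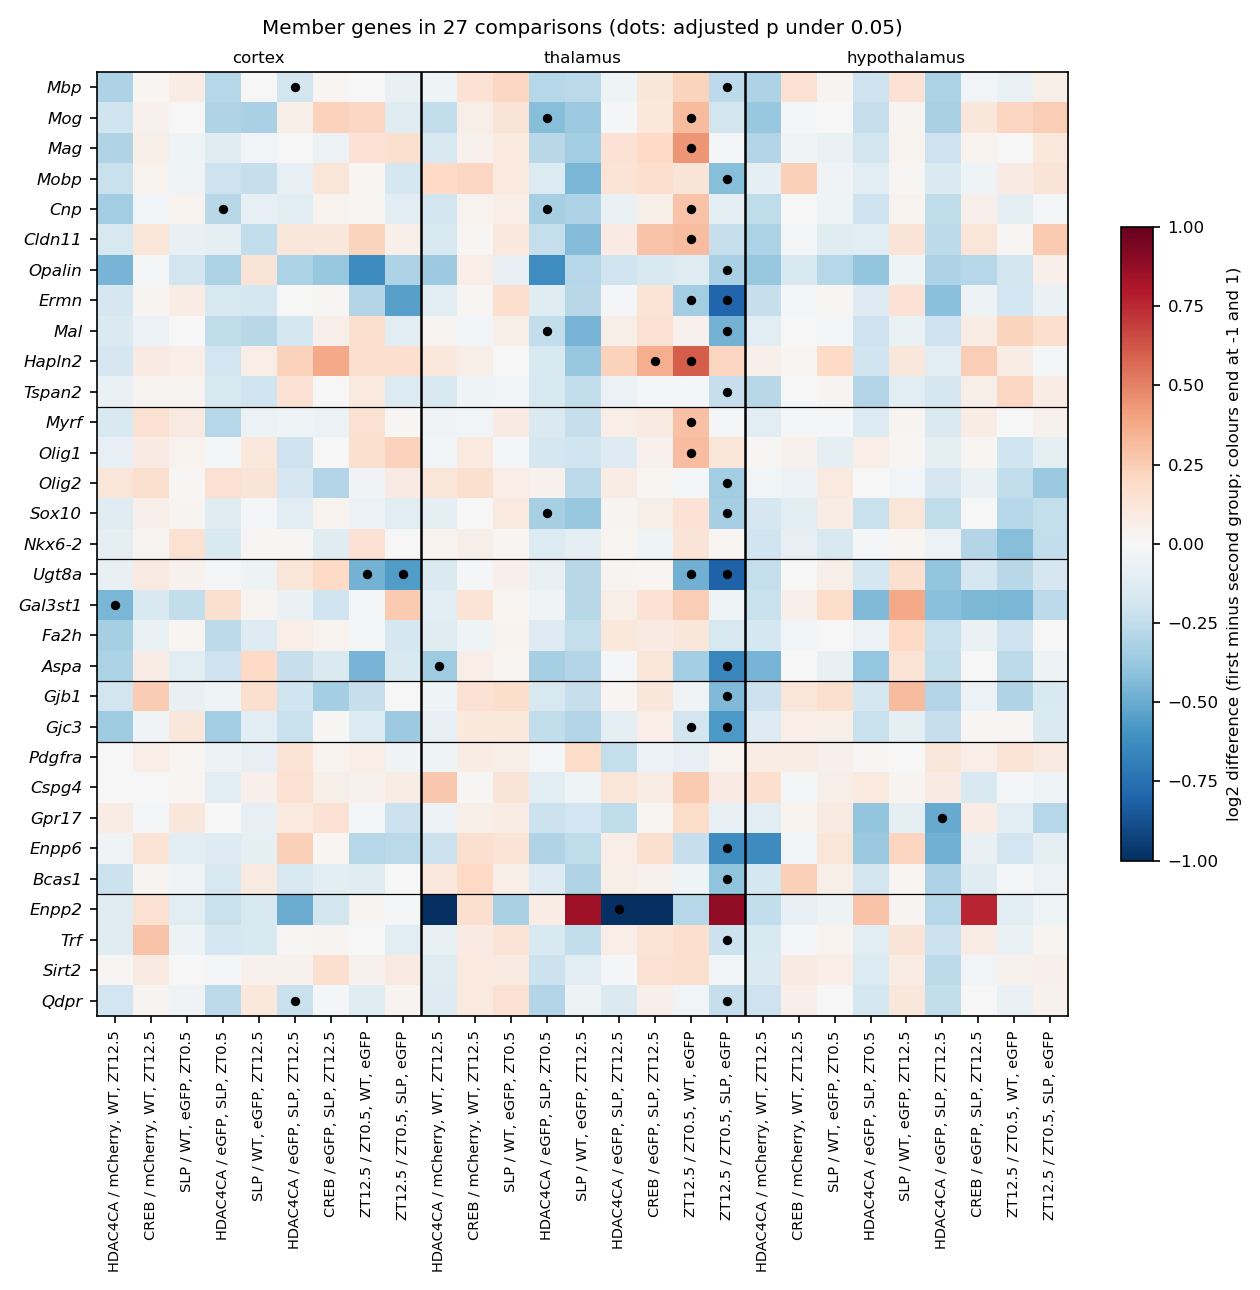
Log2 differences of the 31 genes (limma on log2 values, first minus second group, 4 against 4 libraries) in 27 comparisons of genotype, vector and time, by region, with dots where the adjusted p was under 0.05; colours end at -1 and 1. Most dots lie in the 2 columns of the time comparison in thalamus. There 10 members were called in wild-type mice (25.2% of all genes) and 16 in Sleepy mice (21.3%).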

How the data were processed

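RNA of 120 mouse brain libraries in 30 groups of 4 was analysed from the tables the authors deposited, 1 per library with 49585 lines. Their unit is RPKM in 36 libraries and FPKM in 84, per the file headers, and comparisons were made only within 1 unit. The submitters' processing notes name GRCm38, edgeR 3.28.1, featureCounts, STAR 2.6.1a and CASAVA 1.9. Neither annotation nor strand setting is given in the sources used here, and reads of overlapping genes cannot be told apart. This touches Cnp, Ermn, Mobp, Trf, Enpp2, Sirt2, Gpr17, Nkx6-2, Olig1, Bcas1, Pdgfra, Qdpr and Tspan2.

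From the step of the low values and GENCODE M21 exon lengths (95.2% of genes), whole reads were recovered: 94.3% to 95.8% of values worth up to 20 reads lay within 0.1 of a whole read. Symbols turned into dates (26) and repeated entries (93) were left out. Printed levels are RPKM or FPKM rescaled by the trimmed mean of M values on those reads. Tests used limma 3.58.1 in R 4.3.3 on log2(value + 0.1), which understates changes of low genes, with trend and robust variances, 1 region per fit (both regions in a regional comparison), and Benjamini-Hochberg adjustment over all genes with a mean of at least 10 reads (a mean value of at least 1 without a length). The threshold for a call was an adjusted p of 0.05. The plan had allowed for counts, which the tables do not hold, so limma on log values took the place of a count test. The script was tested on simulated data. No interval is given for counting error alone. The p-values measure the spread between libraries labelled as biological replicates, which includes counting error.

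The 31 genes and all lists were chosen with earlier results of these data known. The regional comparisons at ZT0.5 and in mCherry mice are given by their counts and a few named genes. In each other comparison every called gene is named, or the 8 with the smallest adjusted p where more were called. Where none was called, the 3 with the smallest p are named. Mbp, Mog, Sox10, Myrf, Pdgfra and Enpp2 may be named anywhere. Same-numbered replicates deviated together in 2 of 36 comparisons (all 4 correlations over 0.1), those of HDAC4CA (0.126 to 0.646) and CREB (0.128 to 0.708) with mCherry in wild-type cortex, where replicate 4 is of the low library kind in every group. Alternatives were no rescaling, pseudocounts of 0.01 and 1, no filter, a replicate block, limma voom on recovered reads, each library left out, and leaving out the low library kind. Member counts at an unadjusted p under 0.05 and under these alternatives are given without the share of all genes. They therefore do not set the members apart from other genes. Promoters are those of RefSeq, and 9 members are not used there.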

Additional observations from a re-analysis of the deposited data

Results flagged for a closer look

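In 5 of the 107 sets of 4 libraries examined, 1 library lay far from the others, its gap to the nearest taking a larger share of the range than Dixon's critical value. Chance sets apart about 1 in 20 such sets. The mean log2 level of the 31 genes was 2.77 in the library that stood apart among those of cortex in wild-type eGFP mice at ZT12.5 (gap 0.888 of the range), and 4.21 in that of thalamus of the same mice (0.882). Mag was lowest at 33.4 FPKM in 1 wild-type thalamus library of ZT0.5 (0.83), Mobp lowest at 87.2 FPKM in 1 of ZT12.5 (0.916), and Cnp highest at 81.1 FPKM in 1 Sleepy eGFP thalamus library of ZT0.5 (0.869).

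Among 837 pairs of regional differences, Olig1 stood out between the times in wild-type eGFP mice. All libraries of ZT12.5 lay above those of ZT0.5 in cortex (log2 difference 0.16) and thalamus (0.31), and all lay below them in hypothalamus (-0.20). In hypothalamus Olig1 had 29.7, 28.2, 29.5 and 30.0 FPKM at ZT0.5 and 27.8, 25.1, 25.2 and 24.5 at ZT12.5. The limma adjusted p was 0.00075 in thalamus, 0.137 in cortex and 0.198 in hypothalamus, and the difference between regions was not tested.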

How the results depend on the processing

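Of 253 regional calls of members, 238 held under all alternatives run, and 2 reversed, both of Enpp2 between hypothalamus and cortex without rescaling (0.0922 at ZT12.5, 0.107 at ZT0.5). Of 40 other calls 23 held and none reversed. Without rescaling, the median of all genes was 0.21 to 0.47 against cortex, where it was 0.02 to 0.04 with rescaling, and -0.03 to -0.15 between thalamus and hypothalamus, where it was -0.02 to 0.01.

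Counts of called members moved as follows, given without the share of all genes called in each alternative. For HDAC4CA, wild-type cortex gave 1, with 3 without rescaling, 0 without the filter, 2 by voom, 0 without the low library kind and 0 to 4 with 1 library left out. Sleepy cortex gave 1 at ZT0.5 (0 without the filter or with the replicate block, 6 by voom, 0 to 2 with 1 library left out) and 2 at ZT12.5 (0 without rescaling or the filter, 0 to 2). Wild-type thalamus gave 1 (3 without rescaling, 3 by voom with 2 of them higher, 0 to 1). Sleepy thalamus gave 4 at ZT0.5 (11 without rescaling, 11 by voom, 3 to 8) and 1 at ZT12.5 (2 by voom, 1 to 2). Sleepy hypothalamus gave 0 at ZT0.5 (1 by voom) and 1 at ZT12.5 (0 with a pseudocount of 1, with the block, or with 1 library left out). For CREB, Sleepy thalamus gave 1 (0 without the filter, 0 to 1). For time, wild-type cortex gave 1 (0 without the filter or with the block, 3 by voom, 0 to 1), Sleepy cortex 1 (2 without rescaling, 2 with the block, 4 by voom), wild-type thalamus 10 (5 without rescaling, 9 to 11), Sleepy thalamus 16 (15 to 17), and wild-type and Sleepy hypothalamus 0 each (2 by voom in both, 0 to 1 in wild type). The genotypes in thalamus gave 0 at ZT12.5 (3 by voom), and their difference between times 0 (5 by voom). The causes were not tested. The eGFP groups hold no library of the low kind, and without that kind the regional comparisons of mCherry mice could not be fitted. Outside the 2 vector comparisons in wild-type cortex, the 4 correlations of same-numbered replicates were not all over 0.1. Whether the replicate numbers pair libraries there is not known.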
